A study of Mus musculus with 4 samples.

Results

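The 5 Ikaros family genes, Ikzf1 to Ikzf5, were examined for accessible chromatin in lymphoid tissue inducer (LTi) cells, the innate lymphocytes that start the formation of lymph nodes and Peyer's patches. The members are the islands of a DNase-seq peak table whose nearest protein-coding gene end, within 50 kb, is an end of one of these genes, or that lie inside the gene body. Of 16584 islands, 12 met this rule. Of these, 4 belonged to Ikzf1, 4 to Ikzf2, 2 to Ikzf3, 1 to Ikzf4 and 1 to Ikzf5. The cells were sorted from Peyer's patches of C57BL/6 mice as CD127+ and CCR6+ cells without lineage markers, KLRG1, NK1.1 or NKp46. The series has 2 libraries from mice titled Tcf7-KO, in which a Cre recombinase can delete floxed Tcf7 (Tcf7fl/fl), the TCF-1 gene, with 2 more libraries from Tcf7+/+ mice. Each library came from 300 cells, exposed to 0.3 U of the nuclease during 5 minutes. The sources used here state neither the age of the mice nor any pooling of animals.

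Ikaros family proteins are zinc finger transcription factors of lymphocytes. Their first zinc fingers bind DNA around a GGGAA core, and a last pair of fingers joins family members into dimers. Ikaros recruits the NuRD remodelling complex and other corepressors, and it can also activate genes. Ikzf1 encodes Ikaros, which lymphocyte development requires, Ikzf2 encodes Helios, known from regulatory T cells, Ikzf3 encodes Aiolos, known from B cells, Ikzf4 encodes Eos, a corepressor partner of FOXP3, and Ikzf5 encodes Pegasus, which is more broadly expressed and binds a different sequence.

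Each island has 2 read counts, called peak and control in the header, and neither is tied to a genotype. Tcf7-KO and control mice are therefore not compared, and there are no replicate values. The values below describe where chromatin was accessible and how the reads of the 2 sides related. The peak side held 425134 reads in islands and the control side 645087. A fold is peak-side reads over control-side reads multiplied by 0.345, the factor in the authors' deposited folds, and its exact (Clopper-Pearson) 95% interval covers counting error only. Called islands are those with an FDR under 0.05 in the authors' deposited table. The lowest peak-side count in the table was 8, so the lack of an island does not show that chromatin was closed. Of LTi and group 3 innate lymphoid cell markers, 12 of 13 had an island, against 1 of 7 for T cells, 2 of 6 for B cells, 1 of 6 for NK and type 1 innate lymphoid cells and 1 of 5 for myeloid cells. Over all protein-coding genes the share was 55.2%. Folds at markers of other cells were not all lower. With reads pooled per gene, the median fold was 2.25 for LTi markers. It was 2.90 for T cell, 4.54 for B cell, 1.29 for NK and 3.31 for myeloid markers, on 1 or 2 genes each. Ccr6, used for the sort, was the one without an island among these 13, and 1 further listed LTi marker is left out of the count and not reported here. Ikaros family genes are used by many lymphocytes, and the part of other cells in their islands was not tested.

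The start regions with a RefSeq promoter are shown first, because islands of Ikzf1 and Ikzf5 can be tied to them letter by letter. The RefSeq table (GRCm38.p6, the assembly that mm10 names) matched 2 of the 5 genes, with 3 promoters of 300 bases, 250 before and 50 after the start. All 3 lay wholly inside islands of their genes. The first Ikzf1 promoter is chr11:11685675-11685974 (plus strand), the second is chr11:11689927-11690226 (plus strand) and the Ikzf5 promoter is chr7:131410429-131410728 (minus strand). One more promoter, of the long noncoding RNA gene Gm26876 at chr10:128645634-128645933 (plus strand), lay wholly inside the single island of Ikzf4. Capitals mark matches, on either strand, to the Ikaros core GGGAA and the ETS-type motif AGGAAG, and the first sequence has no capitals because it has no match.
Ikzf1 first promoter: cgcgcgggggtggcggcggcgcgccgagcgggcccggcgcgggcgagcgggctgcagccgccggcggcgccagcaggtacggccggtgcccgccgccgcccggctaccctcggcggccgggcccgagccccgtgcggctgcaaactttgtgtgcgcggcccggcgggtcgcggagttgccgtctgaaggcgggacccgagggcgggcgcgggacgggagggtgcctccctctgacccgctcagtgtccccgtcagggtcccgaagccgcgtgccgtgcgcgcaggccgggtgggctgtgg
Ikzf1 second promoter: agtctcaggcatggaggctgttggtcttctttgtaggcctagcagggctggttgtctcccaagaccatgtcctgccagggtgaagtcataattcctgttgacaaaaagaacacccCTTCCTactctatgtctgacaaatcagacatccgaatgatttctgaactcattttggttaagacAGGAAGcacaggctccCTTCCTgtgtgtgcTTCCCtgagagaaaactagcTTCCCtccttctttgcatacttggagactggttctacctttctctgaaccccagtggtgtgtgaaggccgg
Ikzf5 promoter: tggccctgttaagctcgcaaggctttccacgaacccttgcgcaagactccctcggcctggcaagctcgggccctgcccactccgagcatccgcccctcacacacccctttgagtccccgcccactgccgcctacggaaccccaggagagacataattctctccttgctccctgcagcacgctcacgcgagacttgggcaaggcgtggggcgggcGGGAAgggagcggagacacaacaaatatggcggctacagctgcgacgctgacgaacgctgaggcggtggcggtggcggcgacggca
Gm26876 promoter: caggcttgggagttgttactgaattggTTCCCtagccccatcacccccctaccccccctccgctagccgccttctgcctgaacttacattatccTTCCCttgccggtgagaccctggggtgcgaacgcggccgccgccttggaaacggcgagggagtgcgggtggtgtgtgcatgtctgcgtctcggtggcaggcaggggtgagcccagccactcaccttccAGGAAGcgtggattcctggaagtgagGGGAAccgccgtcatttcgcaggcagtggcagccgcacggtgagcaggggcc

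The 2 Ikzf1 promoters differed in base composition. The first had 81.3% G and C and 52 CpG dinucleotides, a G and C content above that of 99.3% of the 32851 promoters in the table. The second had 49.0% G and C and 2 CpG dinucleotides. The Ikzf5 promoter had 65.7% G and C with 27 CpG dinucleotides, and the Gm26876 promoter 64.3% with 19. Promoters wholly inside an island had a median of 62.7% G and C, against 49.0% for promoters that were not.

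Motifs were searched on both strands. For Ikaros these were the core GGGAA and its longer form TGGGAA, which contains the core. For ETS factors they were AGGAAG as well as CCGGAA, both of which share the letters GGAA with the Ikaros core. For RUNX the motif was TGTGGT, and for TCF/LEF it was CTTTGAA, besides the forms ending otherwise, CTTTGAT for one or CTTTGTT for another. The second Ikzf1 promoter held GGGAA at positions 210 to 214 and 230 to 234 and AGGAAG at 116 to 121, 180 to 185 and 196 to 201, counted from 1 at the 5′ end of the printed sequence. The Ikzf5 promoter held GGGAA at 215 to 219, and the Gm26876 promoter held it at 28 to 32, 95 to 99 and 249 to 253, with AGGAAG at 223 to 228. GGGAA was present in 62.7% of all promoters and AGGAAG in 35.4%, so these matches are common. TGGGAA (25.6% of all promoters), CTTTGAA (5.14%), CTTTGAT (3.73%), CTTTGTT (5.85%), CCGGAA (14.9%) and TGTGGT (16.8%) had no match in these 4 windows. The related form CTTTGTA was not among the motifs searched and is not capitalised. It occurs in the printed second Ikzf1 promoter, and its share over all promoters was not counted. The lack of a match therefore holds for the listed TCF/LEF forms only.

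Accessible chromatin at Ikzf1 formed 4 separate islands, around the start, upstream of it and near the far end of the gene. Ikzf1 (Ikaros) spans chr11:11684962-11772930, and its islands are numbered here, as for every gene, by rising coordinate. Island 1 (chr11:11656801-11658000) lay between protein-coding genes, 26962 bp before Ikzf1, with 11 peak-side and 7 control-side reads. It lies inside the body of Gm11999, a long noncoding RNA gene at chr11:11642203-11685635. Island 2 (chr11:11685201-11688200) held the first promoter, 239 bp from the annotated gene end, with 17 and 21 reads. Island 3 (chr11:11689801-11691400) held the second promoter, 4839 bp inside the gene, with 11 and 10 reads. Of the 4 islands, the CpG-rich start had the most reads on both sides, spread over 3000 bp, the widest of the 4. Island 4 (chr11:11766201-11766800) was the narrowest at 600 bp and lay within the gene, 6130 bp from its other end, with 9 and 7 reads.

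All 4 islands of Ikzf1 were called. Their folds were 4.56 (95% counting interval 1.61 to 13.9), 2.35 (1.16 to 4.67), 3.19 (1.23 to 8.38) and 3.73 (1.24 to 11.8) for islands 1 to 4. The island over the first promoter thus had the lowest fold of the gene and the island upstream the highest, but the 4 intervals overlap. Pooled over 48 and 45 reads, Ikzf1 had a fold of 3.09 (2.02 to 4.75), higher than that of 92.7% of the 12071 protein-coding genes with an island. Its first promoter also overlapped that of Gm11999, which lies on the other strand, and reads there cannot be split between them.

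**Figure D1:**
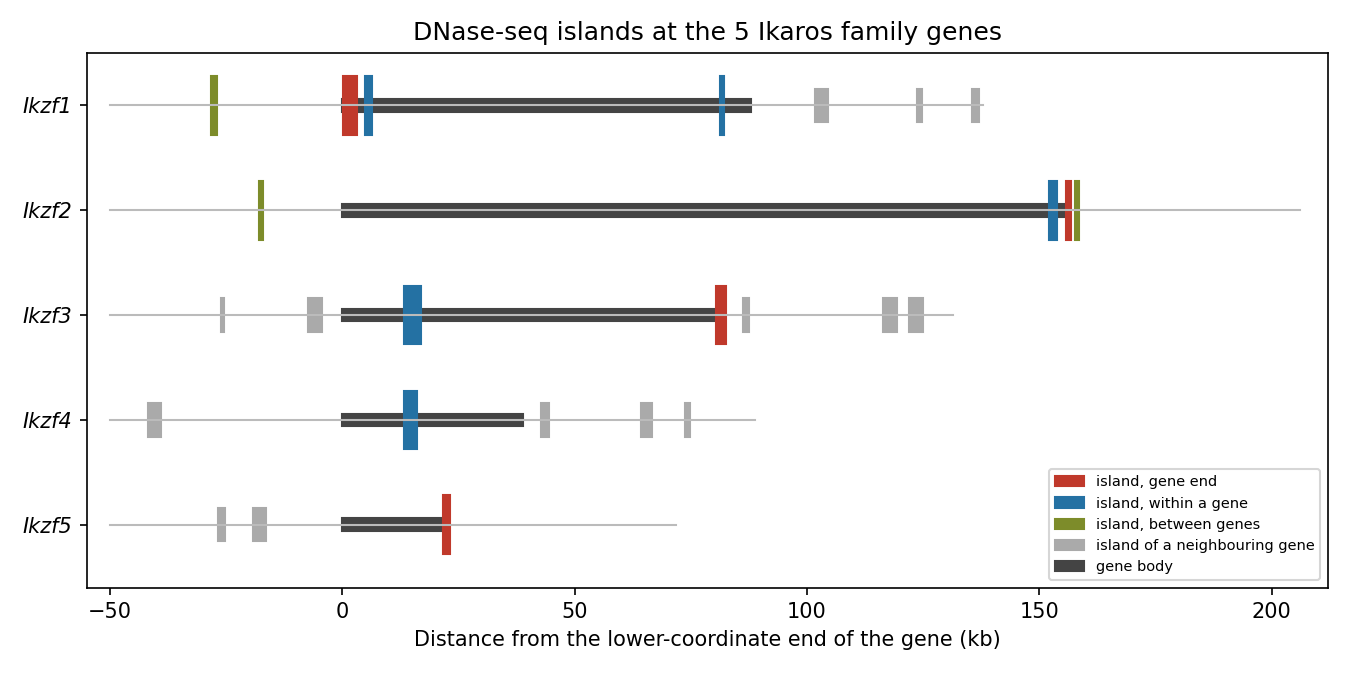
Positions of islands at the 5 Ikaros family genes, one gene per row, as distance in kb from the end of the gene with the lower coordinate (dark bar, gene body; thin line, 50 kb on either side). Coloured blocks are the 12 member islands by location and grey blocks the 14 islands given to neighbouring genes; Ikzf2 has no grey block and no island in the 169200 bp between its islands 1 and 2.

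Islands of Ikzf2 were packed around 1 end of the gene. Ikzf2 (Helios) spans chr1:69531207-69687351 and is the longest of the 5 genes at 156145 bp. Island 2 (chr1:69683201-69685000) lay 2351 bp inside the upper-coordinate end, with 12 peak-side and 16 control-side reads. Island 3 (chr1:69687001-69688000) lay over that end, with 14 and 21 reads. Island 4 (chr1:69688801-69689600) lay 1450 bp beyond it, with 11 and 9 reads. These 3 islands were separated by 2000 and 800 bp. Island 1 (chr1:69513201-69514000) lay between protein-coding genes 17207 bp beyond the opposite end, with 10 and 6 reads, and 169200 bp without an island separated it from island 2.

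The 4 islands of Ikzf2 were called. Their folds were 4.83 (1.59 to 16.2), 2.18 (0.939 to 4.90), 1.93 (0.909 to 3.99) and 3.55 (1.34 to 9.68). The counting intervals of islands 2 and 3 reach below 1 although the authors' deposited FDR was 0.00748 and 0.0114. The interval is 2-sided and covers the counting error of both sides. The authors' FDR was not recomputed, so the reason for the difference was not tested. As at Ikzf1, the gene-end island had the lowest fold and an island outside protein-coding genes the highest. The pooled fold was 2.62 (1.73 to 3.97) on 47 and 52 reads. Having 4 islands or more was uncommon: 4.29% of genes with an island did, while 68.9% had 1. These shares are over genes of all lengths. Under the rule a long gene, or one far from its neighbours, can gather more islands, and this was not taken into account.

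Ikzf3 had the member island with the most peak-side reads, deep in the gene. Ikzf3 (Aiolos) spans chr11:98464610-98546031. Island 1 (chr11:98477801-98481600) lay 13191 bp inside the lower-coordinate end and 64431 bp from the other, with 28 peak-side and 28 control-side reads over 3800 bp. It was the widest of the 12 islands and wider than 92.0% of islands elsewhere within genes. Island 2 (chr11:98545001-98547200) lay over the upper-coordinate end, with 19 and 23 reads. Both were called, with folds of 2.90 (1.66 to 5.08) and 2.40 (1.23 to 4.60), and the FDR of island 1, 3.87e-06 in the authors' deposited table, was the lowest of the 12. The pooled fold was 2.67 (1.76 to 4.05).

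Ikzf4 and Ikzf5 had 1 island each. By the rule, that of Ikzf5 was shared with another protein-coding gene and that of Ikzf4 was not. The Ikzf4 island did hold the promoter of a noncoding gene, as Ikzf1 island 2 does. Ikzf4 (Eos) spans chr10:128630839-128669671, and its island (chr10:128644201-128646800) lay 13362 bp inside it, with 11 peak-side and 16 control-side reads. The start of Gm26876 lies in that island. No island overlapped either end of Ikzf4, and the nearest one beyond its upper-coordinate end, 3930 bp away, was closer to the neighbour Suox. The fold was 1.99 (0.837 to 4.58), and the island was called at an FDR of 0.0160 in the authors' deposited table.

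Ikzf5 (Pegasus) spans chr7:131388649-131410518, and its island (chr7:131410401-131411800) covered its start and an end of Acadsb, an acyl-CoA dehydrogenase gene. The 2 gene ends face each other with 82 bp between them, and the promoters lie on opposite strands. The island had 17 peak-side and 44 control-side reads, the most control-side reads of the 12 islands. Its fold was 1.12 (0.600 to 2.00), and it was the member island that was not called, at an FDR of 0.276 in the authors' deposited table. Of genes with an island, 97.2% had a higher pooled fold than Ikzf5.

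Reads per kb divide the reads of each island by its width, but this scale is not free of width. With a lowest peak-side count of 8 in the table, a narrow island cannot have a low density. Ikzf1 island 4, for one, had 9 peak-side reads in 600 bp. The peak side had 15.0 reads per kb in Ikzf1 island 4, 14.0 in Ikzf2 island 3 and 4.23 in the Ikzf4 island, the highest, the second and the lowest of the 12. The broad Ikzf1 island 2 was sparse at 5.67 peak-side reads per kb, lower than all but 8.05% of gene-end islands. Ikzf5 had 12.1 reads per kb on the peak side and 10.8 on the scaled control side, the densest control side of the 12. Pooled per gene, the peak-side density was 7.50 reads per kb at Ikzf1, 10.7 at Ikzf2 and 7.83 at Ikzf3. Over all single islands the median was 10.6, and the single islands of Ikzf1 lay on both sides of it, while both islands of Ikzf3, at 7.37 and 8.64, lay below it.

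**Figure D2:**
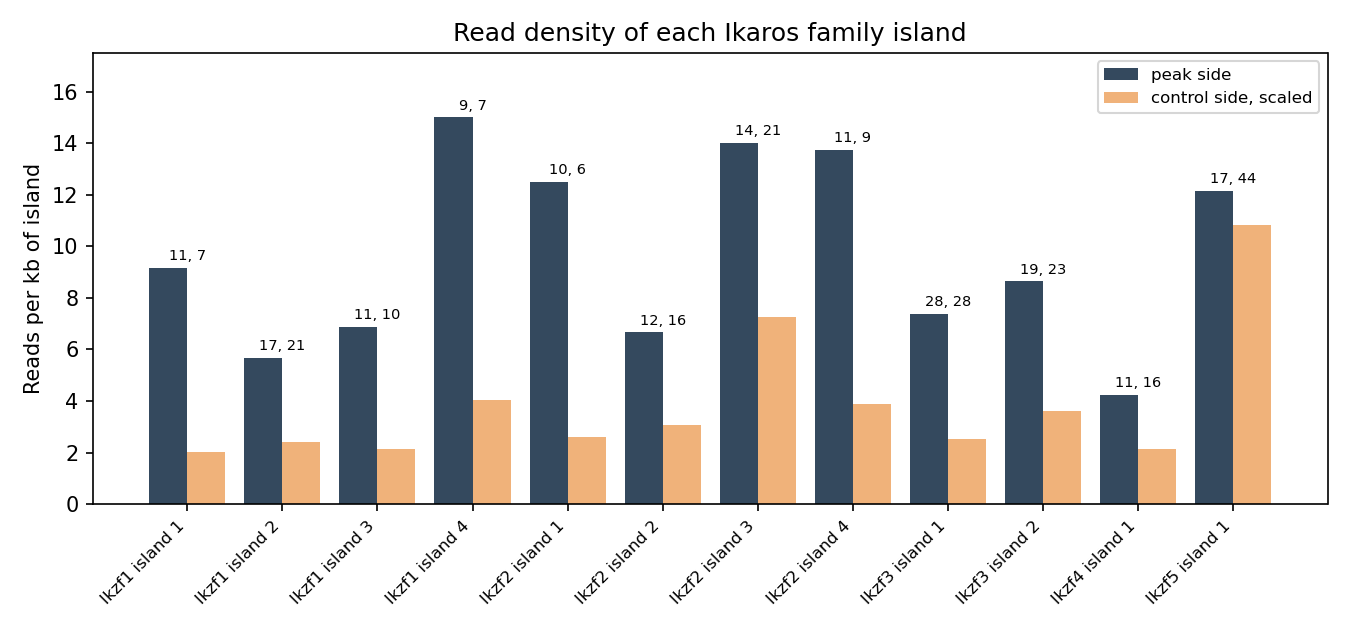
Reads per kb of island on the peak side (dark bars) and on the scaled control side (light bars) for the 12 islands, with the unscaled peak-side and control-side read counts above each pair. In Ikzf5 the bars are close, at 12.1 and 10.8 reads per kb, while Ikzf1 island 4 has 15.0 and 4.02.

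The Ikaros, Helios and Aiolos genes had higher pooled folds than the single, shared island of Pegasus. A ratio of 2 folds does not depend on the scaling factor, and exact conditional 95% intervals are given for it. The pooled fold was 2.76 times that of Ikzf5 at Ikzf1 (1.32 to 5.90), 2.34 times at Ikzf2 (1.12 to 4.96) and 2.39 times at Ikzf3 (1.15 to 5.07). For Ikzf4 the ratio was 1.78 (0.610 to 5.07), so a difference from Ikzf5 was not detectable at these counts. The intervals of Ikzf1, Ikzf2, Ikzf3 and Ikzf4 overlap each other. These 4 ratios are not adjusted for their number, and Ikzf5 was singled out after its value was seen. They rest on 1 island shared with Acadsb, of whose 1400 bp 118 lie in the Ikzf5 gene body. With distance taken from the island's middle, Ikzf5 has 0 islands and no such comparison can be made.

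Of the 12 islands, 11 were called, beside 82.3% of all islands in the table, so the count of calls is near the background. The counting interval lay above 1 in 8 of the 12. The same share over all islands was not counted, so this number cannot be set against a background. No island in the table had under 8 peak-side reads, while 11 had 0 control-side reads. Entry to the table thus favours a high peak side, which can raise the folds of islands with few reads. Intervals above 1 are therefore not independent evidence of accessibility. The median fold of the 12 islands was 2.65, against 2.01 over all islands. Pooled over 170 and 208 reads, the fold was 2.37 (1.92 to 2.92). This was 1.24 times that of the other 16572 islands (1.01 to 1.53, with the other islands' fold taken as known). Without the Ikzf5 island the ratio was 1.42 (1.13 to 1.78). That island had the lowest fold of the 12 and was left out after its value was seen, which can only raise the ratio. Neither ratio is matched on location. Islands within 1 kb of a gene end were 4 of the 12 members but 55.7% of all islands. Their median fold over the table was 1.86, against 2.34 elsewhere within genes and 2.32 between genes. The part of location in these ratios was not tested. The members had few reads: their median peak-side count was 11.5, against 18 over all islands.

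**Figure D3:**
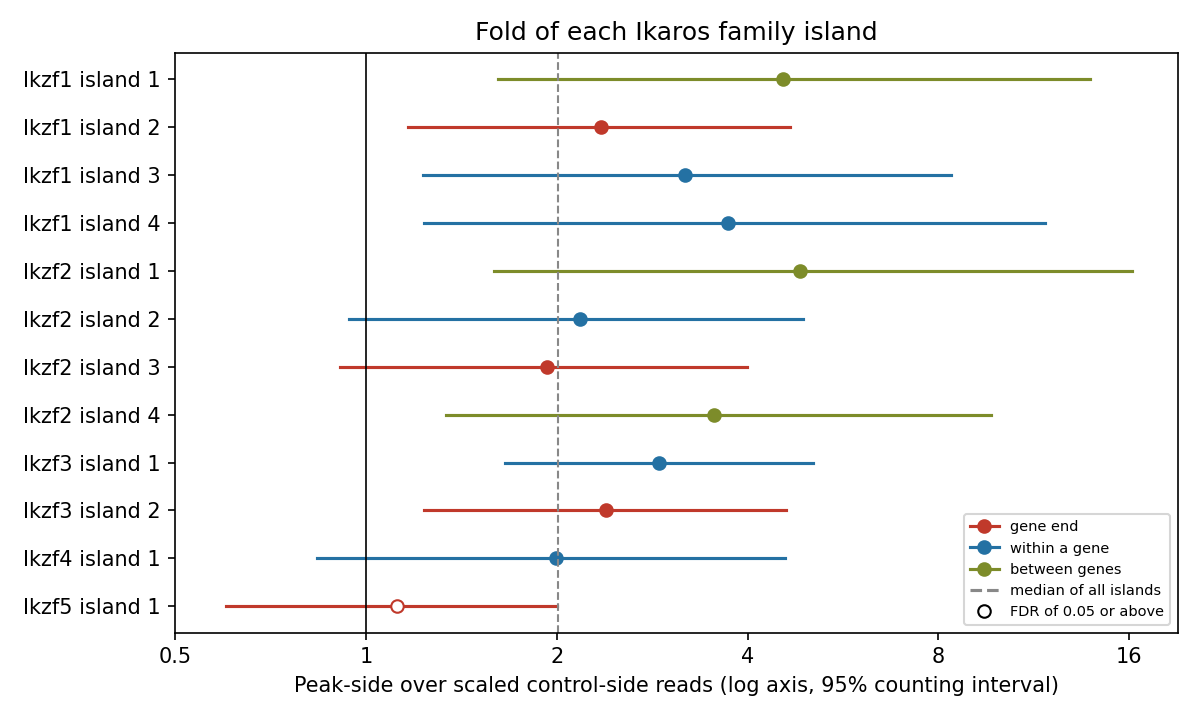
Fold of each of the 12 islands (point) with its exact 95% counting interval (line) on a log axis, coloured by location; the dashed line is the median of all islands, 2.01, and the open point is the island not called. The Ikzf5 fold of 1.12 is the lowest, and 4 intervals cross 1, those of Ikzf2 islands 2 and 3, Ikzf4 and Ikzf5.

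Folds ran higher in members away from gene ends than in members at gene ends, in a comparison that leans on Ikzf5. An island within 1 kb of a protein-coding gene end counts here as a gene-end island. Noncoding genes are not used for location, so that Ikzf1 island 1, inside Gm11999, counts as between genes. The islands elsewhere are not free of promoters, so this is not a contrast of promoter with other islands. Ikzf1 island 3 holds the second Ikzf1 promoter and the Ikzf4 island that of Gm26876, and Ikzf2 island 4 lies 1450 bp from a gene end. The 4 gene-end islands had folds of 1.12 to 2.40, the 5 elsewhere within a gene 1.99 to 3.73 and the 3 between genes 3.55 to 4.83. In each of Ikzf1, Ikzf2 and Ikzf3 the gene-end island had the lowest fold, although no gene shows the difference alone, with ratios of other islands to the gene-end island of 1.60 (0.641 to 3.99), 1.60 (0.641 to 4.03) and 1.21 (0.504 to 2.92). Pooled over the family, islands elsewhere had a fold of 3.02 (103 and 99 reads) and gene-end islands 1.78 (67 and 109 reads), a ratio of 1.69 (1.10 to 2.61). Without the Ikzf5 island the ratio was 1.35 (0.832 to 2.20), so it rests on that island. All other islands outside mitochondrial DNA with under 1000 reads had a ratio of 1.14 in the same direction, and the table's median folds were 1.86 at gene ends, 2.34 elsewhere within genes and 2.32 between genes.

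Set among islands of the same location, the members spread widely. Ikzf2 island 1 and Ikzf1 island 1 had higher folds than 91.1% and 89.7% of other islands between genes. Among islands between genes whose peak-side reads differed by at most 2 from theirs, the shares were 87.1% of 1464 and 86.3% of 1662. The gene-end islands of Ikzf3 and Ikzf1 exceeded 80.3% and 78.4% of gene-end islands, and that of Ikzf2 54.9%. The Ikzf5 island exceeded 3.77%, and 5.33% of the 1727 gene-end islands with like reads. Ikzf4 exceeded 35.2% of islands elsewhere within genes. Promoter islands of the table had a median fold of 1.76 where the promoter had at least 70% G and C, and of 2.01 where it had under 50%. The islands of the 2 Ikzf1 promoters, at 2.35 and 3.19, lay above the median of their own class. The Ikzf5 island, at 1.12, lay below the 1.82 of promoters with 60 to 70% G and C.

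**Figure D4:**
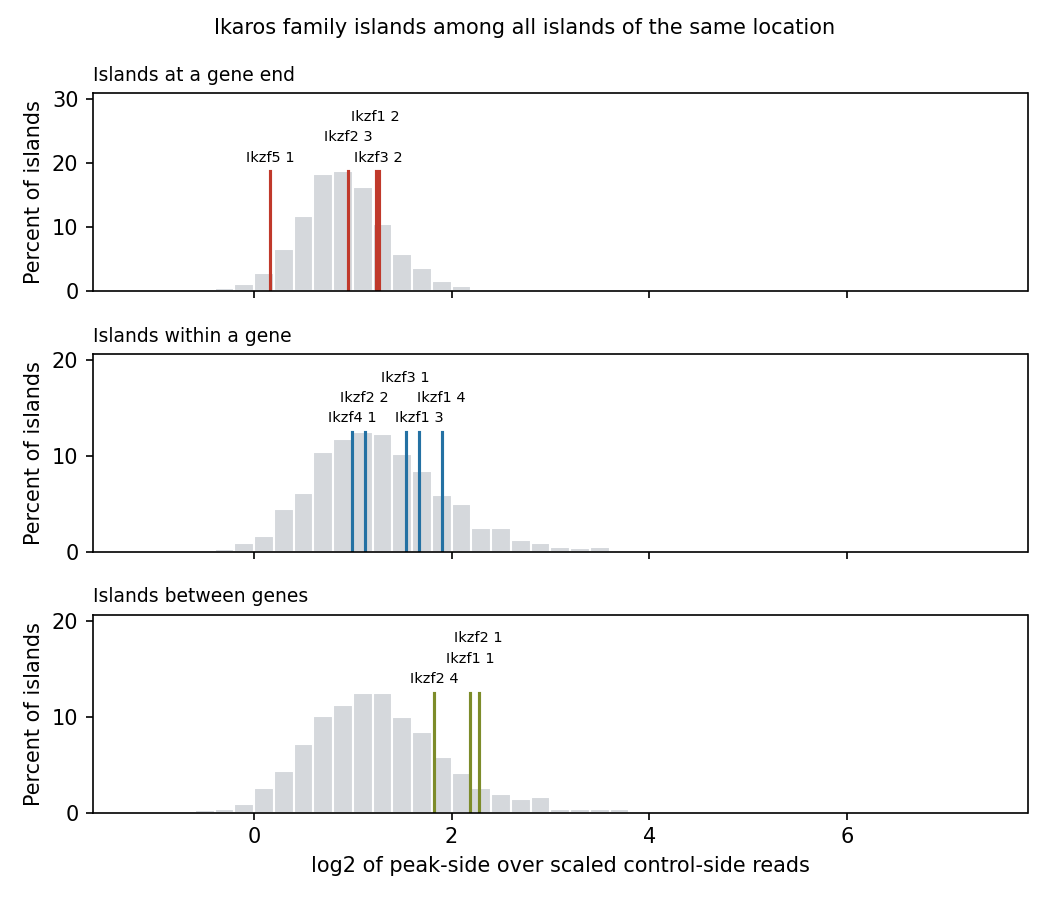
Share of islands, in percent, by log2 fold in steps of 0.2 for gene-end islands (top), islands elsewhere within genes (middle) and islands between genes (bottom), with each member island as a coloured line named by gene and island number. Members lie in the upper part of the gene-end and between-gene distributions except Ikzf5, which exceeds 3.77% of gene-end islands, and Ikzf2 island 3, which exceeds 54.9%.

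The neighbours of Ikzf1 and Ikzf3 had lower folds than the members beside them, a comparison chosen after the values were seen. Within 50 kb of Ikzf1, 3 islands given to Fignl1 and Ddc had folds of 1.07 to 1.93, below each of the 4 islands of Ikzf1. The pooled fold of Ikzf1 was 2.01 times theirs (exact conditional interval 1.17 to 3.46). Around Ikzf3, 5 islands given to Erbb2, Mien1, Zpbp2 and Ormdl3 had folds of 0.829 to 1.97, below both islands of Ikzf3, with a ratio of 1.70 (1.05 to 2.76). All 5 lay at gene ends, where folds were lower over the whole table, and the part of location in this difference was not tested. At Ikzf4 the ratio to 4 neighbouring islands was 1.14 (0.456 to 2.77) and at Ikzf5 the ratio to 2 was 0.629 (0.304 to 1.27), so no difference was detectable there. Ikzf2 had no such neighbour.

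Most genes for partners of Ikaros family proteins had an island. Of 16 corepressor and remodelling genes, 15 had an island, as did 55.2% of all protein-coding genes, and 13 had a called one, while 86.4% of genes with an island did. Ctbp2, a corepressor gene, had none, and Chd4 and Rbbp7, which encode the NuRD helicase and a histone-binding subunit, had 1 island each that was not called. Their folds were 0.967 (0.552 to 1.63) and 1.21 (0.615 to 2.26). The median pooled fold of the list was 1.79, beside 3.09, 2.62, 2.67, 1.99 and 1.12 for Ikzf1 to Ikzf5. These values are not matched on location or read count, so they do not show a difference between the family and its partners. Single genes of the list overlapped the family, with Mta1, a NuRD subunit gene, at 2.65 (1.39 to 5.01). Of the 5 genes of the cereblon ubiquitin ligase, which degrades Ikaros and Aiolos in human cells treated with thalidomide analogues, Crbn, Ddb1, Cul4a and Rbx1 had a called island and Cul4b had none. This list is short, and 55.2% of all protein-coding genes had an island. Among 12 genes known as targets or partners in lymphocytes, 7 (58.3%) had an island, which is near that 55.2%. All 7 had a called one, namely Il2, Hes1, Notch1, Rag2, Il7r, Cd79b and Ahr, while 86.4% of genes with an island did. The genes of early lymphocyte receptor assembly Dntt, Rag1, Igll1 and Vpreb1 and the partner gene Foxp3 had none.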

How the data were processed

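DNase-seq of sorted LTi cells was deposited as 1 peak table for 4 libraries. The tools named in the submitters' processing notes are Bowtie2 2.4.2 and SICER 2.0, with build mm10; SICER joins enriched windows into broad islands. Per the file headers, the authors deposited raw read counts on a peak and a control side, a p-value, a fold (ratio) and an FDR (q-value) per island. The sources used here do not state whether replicates were pooled. The deposited folds equal peak-side counts over control-side counts times 0.345, with 0.25 in place of 0 (relative tolerance 1e-06). No column could be tied to a library, so the planned edgeR comparison was not run, library depth is unknown, and islands are described with counting intervals, which treat reads as independent molecules.

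Positions are 1-based mm10. Genes came from RefSeq GRCm38.p6 (21887 protein-coding genes, no strand; noncoding genes were not used to assign or locate islands). Distance was measured from the island's nearest edge, ties included. Every member and every island of a member is named. No member island lay just outside the 50 kb limit: without it there were still 12, and the farthest lay 26962 bp from its gene. The members, gene lists and motifs were chosen with earlier results of these data known. Trac, a listed T cell marker, was not in the gene table. Intervals and assignment were tested on simulated data (Python 3.11.15, SciPy 1.17.1, pandas 2.3.3). Alternatives covered assignment, FDR, scaling, read minimum and single islands.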

Additional observations from a re-analysis of the deposited data

How the results depend on the processing

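The scaling of the control side, which these data cannot settle, moved every pooled fold; the scaling without mitochondrial and read-rich islands was chosen after seeing the data. Scaled by the reads in all islands, by the median ratio, or by the reads in islands outside mitochondrial DNA with under 1000 reads, the pooled fold was 1.62, 1.54 or 1.62 in place of 3.09 at Ikzf1, 1.37, 1.31 or 1.37 in place of 2.62 at Ikzf2, 1.40, 1.33 or 1.40 in place of 2.67 at Ikzf3, 0.586, 0.558 or 0.587 in place of 1.12 at Ikzf5 and 1.24, 1.18 or 1.24 in place of 2.37 over the 5 genes. At Ikzf4 it was 1.04, 0.993 or 1.04 in place of 1.99, so the direction turned under the median ratio. These scalings set the fold of a typical island near 1 by construction. Taking every island that touches a gene body or its 50 kb flanks, whichever gene is nearest, gave 26 islands in place of 12 by construction, since it adds those of neighbours; the other assignments gave 9 to 12. Distance from the island's middle gave 11 and left Ikzf5 with 0, since its island went to Acadsb alone. An FDR under 0.01, or the FDR together with a fold above 2, kept 9 called islands in place of 11. A minimum of 20 peak-side reads left 1 island, that within Ikzf3. No paired analysis was possible because no column names a library or replicate, and the fits per library (replicate block, leaving out replicates, DESeq2 size factors, low-count filter) were not run. Counts of 9 to 28 peak-side reads limit each single fold.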
